A study of Amolops torrentis with 15 samples.

Results

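The activity-induced effector genes ARC, HOMER1, DUSP4, GADD45B and CYR61 were followed in the brain of the torrent frog Amolops torrentis, in females. They were found by the gene symbol that the deposited table gives in its Swiss-Prot description of each clustered transcript, called a feature here. The 5 symbols stood on 6 of the 44351 features. ARC, DUSP4, GADD45B and CYR61 had 1 feature each, and HOMER1 had 2, called feature A and feature B below.

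The study's title asks how behaviour and brain gene expression respond to acoustic and visual sexual cues. RNA sequencing gave 15 libraries in 5 groups of 3, which the labels name by the stimulus: audiovisual, acoustic, visual, dark contrast and blank contrast. All libraries share the tissue, the sex of the frogs and the preparation, and the labels name no other treatment and no age. They do not say what the frogs of either contrast group were shown, which contrast group serves as the control of which cue, or whether a library is a single frog or a pool, so the p-values measure only the spread between these libraries, which may be partly technical.

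Synaptic activity opens calcium channels and activates kinases, and a class of genes is then transcribed within minutes. Some of these genes encode transcription factors. Others, the effectors, act directly on the cell: in mammals ARC removes glutamate receptors from synapses and forms capsid-like particles, HOMER1 links metabotropic glutamate receptors to the postsynaptic scaffold, DUSP4 dephosphorylates MAP kinases in the nucleus, GADD45B takes part in stress signalling and in DNA demethylation, and CYR61 (also named CCN1) is a secreted matrix protein that binds integrins. Because such transcripts appear quickly after stimulation, they are often read as markers of recently active neurons.

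Library totals ran from 12071194 to 16829356 estimated counts, and correlations of log2 levels between libraries ran from 0.93 to 0.94. Of 12 neuronal marker symbols 11 were in the table (RBFOX3 is not analysed here), and their summed level, in counts scaled to library size (CPM), was 6033 to 6752 in the stimulus libraries, 6010 to 6292 in the dark contrast and 6390 to 6645 in the blank contrast libraries. Dark and blank contrast did not overlap in this sum, although 12 of the 22 neuronal features lay below 0 in dark against blank contrast brains, 1 of them at an unadjusted p under 0.05, with a median log2 fold change of -0.02; its part in the results was not tested. The library dark contrast 2 stood apart in immediate early transcription factors. Averaged over 20 features of these factors, its log2 level lay 1.09 below the mean of all libraries (a centred level of -1.09), whereas the other 14 lay between -0.25 and 0.35. Averaged likewise over the 6 members, it stood at -0.57 (the others at -0.18 to 0.36). It stood at -0.219 over 25 features of other activity-induced effectors (-0.215 to 0.18), and at -0.12 over 59 features of ARC and HOMER1 partners (-0.16 to 0.12). Its most abundant features of FOS, EGR1, NPAS4 and JUNB stood at 1.93, 24.9, 2.20 and 14.7 CPM, and their lowest values in the other 14 libraries were 14.4, 76.7, 10.2 and 35.0 CPM. It also had the lowest share of counts on 8 mitochondrially encoded features, 4.34% against 4.57% to 6.87%, while its neuronal markers had a centred level of -0.04, inside the range of the others (-0.14 to 0.16). Pituitary markers (pomc and cga) varied most, summing to between 19.6 and 9600 CPM, with the highest sum in an audiovisual library. They summed to 5070 CPM in dark contrast 2, against 404 and 455 CPM in dark contrast 1 and 3. These are bulk tissue values, in which fewer cells of a type and less RNA per cell cannot be told apart.

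On a scale that corrects for feature length (FPKM, in which fragments are divided by library size and by feature length), ARC was by far the most abundant member. Its median over the 15 libraries was 56.0 FPKM, and its mean exceeded that of 94.9% of all features. CYR61 and DUSP4 had medians of 7.03 and 6.87 FPKM, HOMER1 feature A 5.56 FPKM, GADD45B 4.97 FPKM and HOMER1 feature B 2.91 FPKM. Counts behind these values were 297 to 1664 per library for ARC and 55 to 260 for the other features. All 6 features passed the filter of a mean of at least 1 FPKM. The features are named by cluster numbers without a genome position, and their sequences are not analysed here.

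**Figure D1:**
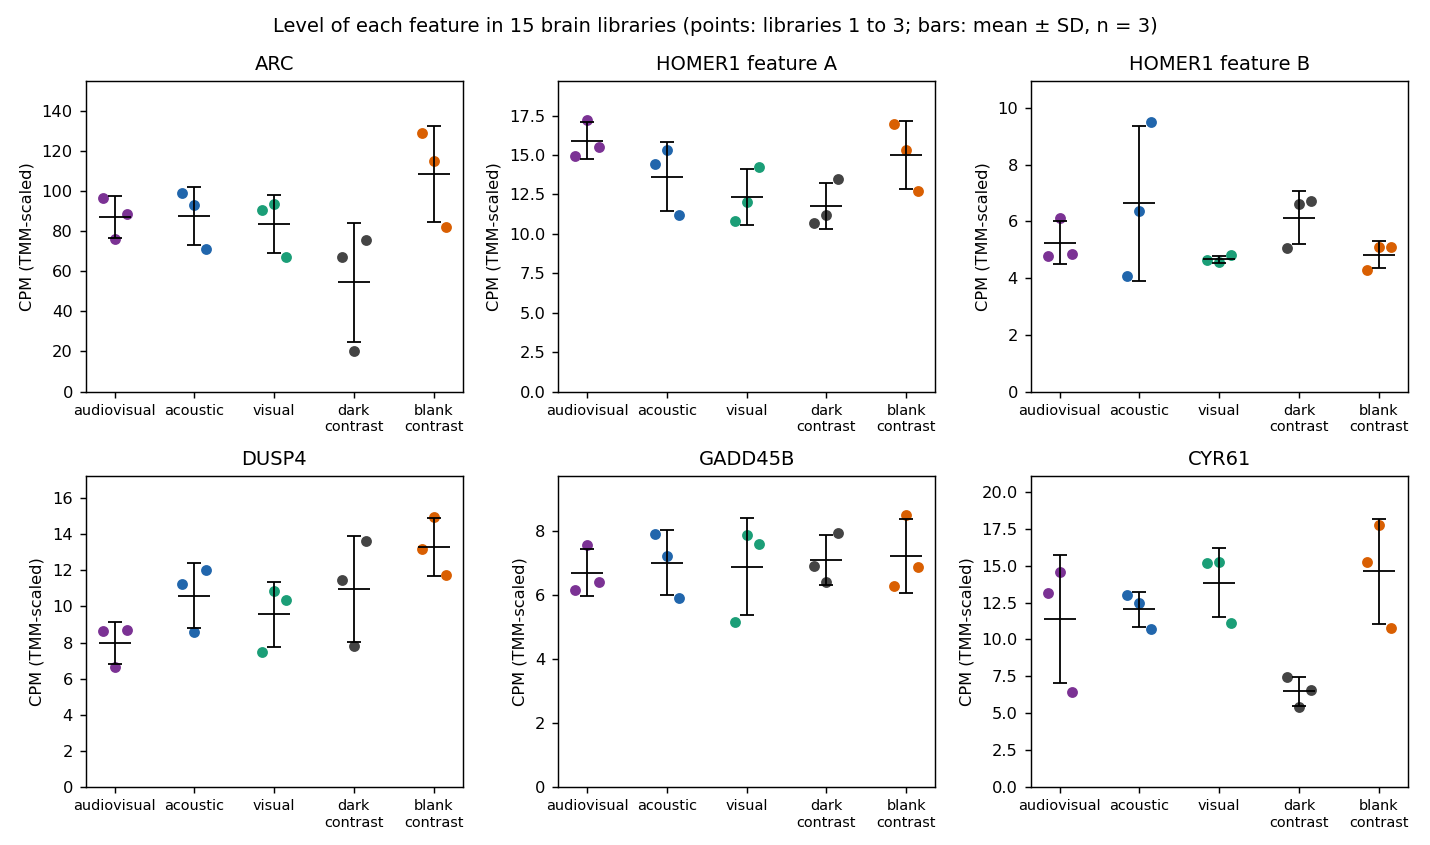
Level of each member feature in CPM (counts after TMM scaling to library size, vertical axes, each starting at 0) in the 15 libraries, grouped as audiovisual, acoustic, visual, dark contrast and blank contrast; points are libraries, and horizontal lines with bars are group means with SD (n = 3). The dark contrast libraries have the lowest means of ARC (54.5 CPM) and CYR61 (6.47 CPM), while GADD45B lies between 5.14 and 8.51 CPM throughout.

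ARC (Cluster-46846.147866, 1657 bases) encodes the activity-regulated cytoskeleton-associated protein, a postsynaptic effector. Its Swiss-Prot match was the chicken protein, and the match to the second protein database (NR) was a Xenopus entry marked there as of low quality. ARC stood at 96.9, 76.2 and 88.8 CPM in the audiovisual libraries, at 99.0, 93.0 and 71.3 CPM in the acoustic libraries and at 90.5, 93.5 and 67.1 CPM in the visual libraries. The contrast groups held the extremes of the whole range, with 67.0, 20.5 and 75.9 CPM in dark contrast brains and 129, 115 and 82.3 CPM in blank contrast brains.

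Group means of ARC were 87.3 ± 10.4 CPM in the audiovisual, 87.7 ± 14.6 CPM in the acoustic, 83.7 ± 14.5 CPM in the visual, 54.5 ± 29.8 CPM in the dark contrast and 109 ± 24.0 CPM in the blank contrast group (SD, n = 3 each). The stimulus groups thus had nearly equal means that lay between those of the contrast groups. No gap between neighbours in this order exceeded the SDs of both groups.

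Dark contrast brains had lower ARC than blank contrast brains in every library, as 5.84% of all features did. The log2 fold change was -0.9995 (SE 0.35, 95% interval -1.75 to -0.25), with an unadjusted p = 0.0129 in edgeR's quasi-likelihood test and an adjusted p = 0.854 over all features tested, so the difference did not pass. Without dark contrast 2 it was -0.61, and without dark contrast 3 it was -1.32, and the edgeR unadjusted p stayed between 0.00446 and 0.0466 when each of the 6 libraries was left out.

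Set against the dark contrast group, ARC had log2 fold changes of 0.68 in the audiovisual (edgeR unadjusted p = 0.0714), 0.69 in the acoustic (0.0686) and 0.62 in the visual group (0.0972). The audiovisual libraries did not overlap with the dark contrast ones (5.48% of all features were higher without overlap), and the other groups did. The 3 comparisons share the dark contrast libraries. The SE of the full fit was 0.35 in each. Leaving out dark contrast 2 brought the log2 fold changes to 0.29, 0.30 and 0.23. With each of the 6 libraries left out, the edgeR unadjusted p reached at most 0.205, 0.194 and 0.311. It was under 0.05 in 1 of the 6 fits in each comparison. Set against the blank contrast group, the log2 fold changes were -0.32 in the audiovisual, -0.31 in the acoustic and -0.38 in the visual group, with edgeR unadjusted p from 0.293 to 0.386. Whether the stimulus groups lay above or below a control therefore depended on which contrast group was taken. Pooling the 9 stimulus libraries against the 6 contrast libraries gave 0.16 (SE 0.22), and -0.03 without dark contrast 2.

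Among the stimulus groups, audiovisual against acoustic brains gave a log2 fold change of ARC of -0.01 (95% interval -0.75 to 0.74), audiovisual against visual brains 0.06 (-0.68 to 0.80) and acoustic against visual brains 0.07 (-0.68 to 0.81). The means lay close together, but intervals this wide do not show that ARC was equal in the stimulus groups.

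HOMER1 encodes a scaffold protein with a long form that couples receptors through its coiled coil and, in mammals, a short activity-induced form that lacks it and uncouples them. Feature A (Cluster-46846.122521, 2505 bases) matched the Xenopus homer protein homolog 1 and feature B (Cluster-46846.122497, 1768 bases) its isoform X2. The table does not say whether either holds the short form, and reads of the gene can be divided between the features, so each is uncertain as a measure of the gene.

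HOMER1 feature A stood at 14.97, 17.2 and 15.5 CPM in the audiovisual libraries, at 14.4, 15.3 and 11.2 CPM in the acoustic libraries and at 10.8, 12.0 and 14.3 CPM in the visual libraries. Dark contrast libraries had 10.7, 11.2 and 13.5 CPM and blank contrast libraries 17.0, 15.3 and 12.7 CPM. All audiovisual libraries lay above all visual libraries (5.01% of all features did) and above all dark contrast libraries, and the other pairs of groups overlapped.

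Feature A was higher in audiovisual than in dark contrast brains by a log2 fold change of 0.43 (SE 0.19, 95% interval 0.03 to 0.84, edgeR unadjusted p = 0.0382, adjusted p = 0.934), which did not pass. With each of the 6 libraries left out, it ran from 0.37 to 0.54. The edgeR unadjusted p then ran from 0.0256 to 0.110 and was under 0.05 in 2 of the 6 fits. Against the visual group the audiovisual group gave 0.37 (SE 0.19, edgeR unadjusted p = 0.0721, adjusted p = 0.9997), and against the acoustic group 0.22, or 0.099 without acoustic 3. Dark against blank contrast brains gave -0.35 (SE 0.19, unadjusted p = 0.0883 in the same test).

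HOMER1 feature B stood at 4.78, 6.13 and 4.84 CPM in the audiovisual libraries, at 4.06, 6.35 and 9.49 CPM in the acoustic libraries and at 4.63, 4.57 and 4.81 CPM in the visual libraries. Dark contrast libraries had 5.06, 6.61 and 6.73 CPM and blank contrast libraries 4.27, 5.11 and 5.08 CPM. The library acoustic 3 was the highest and acoustic 1 the lowest of all 15, so that a single group spanned the whole range. Acoustic against blank contrast brains gave a log2 fold change of 0.46 (SE 0.28, edgeR unadjusted p = 0.120). It was 0.11 without acoustic 3 (0.679 in the same test) and 0.72 without acoustic 1 (0.0144). Visual against dark contrast brains, whose libraries did not overlap (5.3% of all features were lower in this way), gave -0.39 (SE 0.28, edgeR unadjusted p = 0.181).

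Feature B did not follow feature A. In dark against blank contrast brains its log2 fold change was 0.35 (95% interval -0.25 to 0.95), opposite in sign to that of feature A, and over the 15 libraries their log2 levels had a Pearson r of -0.26. Feature B held 24.7% ± 1.31 of the HOMER1 counts in the audiovisual, 32.4% ± 12.3 in the acoustic, 27.6% ± 2.42 in the visual, 34.2% ± 2.59 in the dark contrast and 24.5% ± 4.27 in the blank contrast group (SD, n = 3 each). In acoustic 3 the share was 45.9% (95% Wilson interval 40.4% to 51.5%, counting error only), and the mean of the other 2 acoustic libraries was 25.6%. The dark contrast libraries, with shares of 32.1% to 37.1%, lay above all blank contrast (20.1% to 28.6%), audiovisual and visual libraries. For each of these 3 pairs of groups a two-sided exact permutation test of the share gave p = 0.1, the smallest that 3 against 3 libraries allows (adjusted p = 0.333 over 10 pairs). Groups without overlap always give this value, so the test adds nothing to the separation already described.

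**Figure D2:**
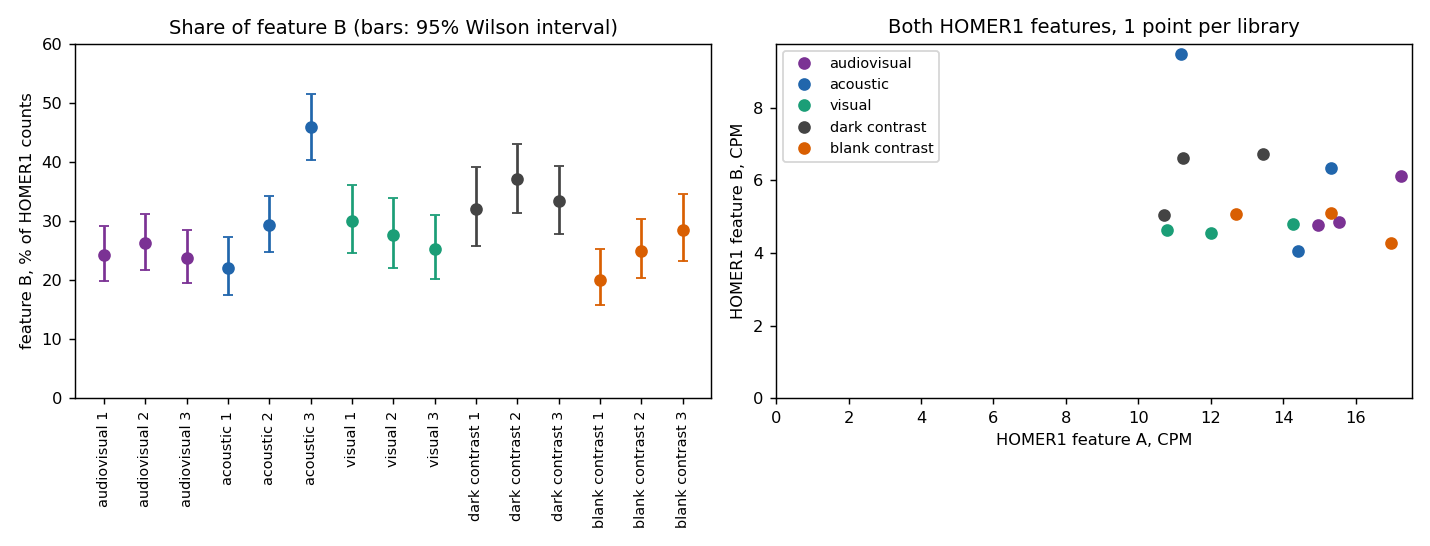
HOMER1 by library: on the left the percentage of HOMER1 counts held by feature B with 95% Wilson intervals, on the right the level of feature B against that of feature A in CPM, each point a library coloured by group. The share in acoustic 3 (45.9%) lies above those of all other libraries, and the 3 dark contrast shares lie between 32.1% and 37.1%.

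When counts were summed over both features, HOMER1 averaged 27.5 ± 2.96 CPM in the audiovisual, 26.5 ± 2.04 CPM in the acoustic, 22.0 ± 2.32 CPM in the visual, 23.7 ± 2.95 CPM in the dark contrast and 25.6 ± 2.32 CPM in the blank contrast group (SD, n = 3 each; here CPM counts only features with a symbol). No gap between neighbouring means exceeded both SDs. The summed HOMER1 had a log2 fold change of 0.32 in audiovisual against visual brains (edgeR unadjusted p = 0.0393, adjusted p = 0.998 over all symbols), and 0.21 in audiovisual against dark contrast brains, where feature A alone gave 0.43.

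DUSP4 (Cluster-46846.114631, 1658 bases) encodes a nuclear phosphatase that switches off MAP kinases and is itself induced by their activity. DUSP4 stood at 8.62, 6.63 and 8.67 CPM in the audiovisual libraries, at 11.2, 8.59 and 12.0 CPM in the acoustic libraries and at 7.49, 10.8 and 10.3 CPM in the visual libraries. Dark contrast libraries had 11.5, 7.78 and 13.6 CPM and blank contrast libraries 13.2, 14.96 and 11.7 CPM. All audiovisual libraries (4.92% of all features) and all visual libraries (5.38%) lay below all blank contrast libraries.

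Audiovisual brains averaged 7.97 ± 1.16 CPM of DUSP4 and blank contrast brains 13.3 ± 1.62 CPM (SD, n = 3 each), the lowest and the highest of the group means. The log2 fold change was -0.74 (SE 0.24, 95% interval -1.26 to -0.22, edgeR unadjusted p = 0.00884, adjusted p = 0.9998). It ranged from -0.82 to -0.62 when each of the 6 libraries was left out. Visual against blank contrast brains gave -0.48 (unadjusted p = 0.0680 in edgeR) and acoustic against blank contrast brains -0.33 (0.196), comparisons that share the blank contrast libraries. The acoustic value was -0.19 without acoustic 2. Against the dark contrast group the audiovisual group gave -0.46 (0.0809), with -0.65 without dark contrast 2 (unadjusted p = 0.0177 in edgeR) and -0.27 without dark contrast 3 (0.319). Acoustic and visual against dark contrast brains gave only -0.05 and -0.20 (unadjusted p = 0.852 and 0.428 in edgeR). DUSP4 was the member with the smallest p when stimulus and contrast libraries were pooled: the 9 stimulus libraries averaged 9.38 ± 1.81 CPM and the 6 contrast libraries 12.1 ± 2.48 CPM, a log2 fold change of -0.37 (SE 0.15, edgeR unadjusted p = 0.0301, adjusted p = 0.9998). Stimulus brains had the lower mean, and the difference did not pass over all features. With each of the 15 libraries left out, it ran from -0.47 (without dark contrast 2) to -0.28 (without dark contrast 3). The edgeR unadjusted p then ran from 0.00714 to 0.103 and was under 0.05 in 9 of the 15 fits.

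GADD45B (Cluster-46846.107961, 1487 bases) is a stress sensor that, in mouse neurons, takes part in activity-linked demethylation of promoters. GADD45B stood at 6.16, 7.55 and 6.40 CPM in the audiovisual libraries, at 7.91, 7.22 and 5.90 CPM in the acoustic libraries and at 5.14, 7.89 and 7.61 CPM in the visual libraries. Dark contrast libraries had 6.91, 6.41 and 7.94 CPM and blank contrast libraries 6.28, 8.51 and 6.87 CPM. All 10 pairs of groups overlapped. Group means lay between 6.70 and 7.22 CPM, and log2 fold changes over the 10 pairs lay between -0.11 and 0.03. The widest limits of their 95% intervals were -0.60 and 0.52. The F test over 5 groups gave an unadjusted p = 0.991 in edgeR.

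CYR61 (Cluster-46846.80911, 1836 bases) is an integrin-binding matrix protein made in many tissues by vascular and mesenchymal cells as well as by neurons, and a target of the transcription factor SRF and the co-activator YAP. CYR61 stood at 13.1, 14.6 and 6.46 CPM in the audiovisual libraries, at 12.99, 12.4 and 10.7 CPM in the acoustic libraries and at 15.2, 15.2 and 11.1 CPM in the visual libraries. Dark contrast libraries had 7.42, 5.44 and 6.56 CPM and blank contrast libraries 15.3, 17.8 and 10.8 CPM. The 3 dark contrast libraries, with 79 to 88 counts each, and the library audiovisual 3 were the only ones under 10 CPM.

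Dark contrast brains averaged 6.47 ± 0.99 CPM of CYR61 and blank contrast brains 14.6 ± 3.57 CPM (SD, n = 3 each), with no overlap. The log2 fold change was -1.17 (SE 0.29, 95% interval -1.80 to -0.55), with an unadjusted p = 0.00124 in edgeR, the smallest of any member in the 11 comparisons with a direction, and an adjusted p = 0.777, which did not pass. Leaving out each of the 6 libraries gave -1.35 to -1.01. Over the other settings tried, the lowest adjusted p was 0.0825 (DESeq2).

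Each stimulus group averaged more CYR61 than the dark contrast group. The log2 fold change was 0.82 in audiovisual (SE 0.29, edgeR unadjusted p = 0.0139), 0.90 in acoustic (SE 0.29, 0.00801) and 1.10 in visual brains (SE 0.29, 0.00207), with adjusted p from 0.896 to 0.973. These comparisons share the dark contrast libraries with each other and with the comparison of the contrast groups. Against the blank contrast group the log2 fold changes of CYR61 were -0.36 in audiovisual, -0.28 in acoustic and -0.08 in visual brains, with edgeR unadjusted p from 0.227 to 0.791. The audiovisual value was -0.07 without audiovisual 3 and -0.58 without audiovisual 2, and the acoustic value was -0.11 without blank contrast 2 and -0.46 without blank contrast 3. The visual value was above 0 without visual 3 (0.06) or without blank contrast 2 (0.090). The gap of 4.93 CPM between audiovisual and dark contrast brains was the only gap between neighbouring group means, in any member, that exceeded the SDs of both groups. Their libraries still overlapped: audiovisual 3 (6.46 CPM) lay below dark contrast 1 (7.42 CPM) and 3 (6.56 CPM). With each of the 6 libraries left out, the log2 fold change ran from 0.60 to 1.10. The edgeR unadjusted p ran from 0.00066 to 0.0746, under 0.05 in 4 of the 6 fits.

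In dark against blank contrast brains all 7 tested features of the pericyte and meninges list (5 of 7 symbols in the table, without PDGFRB and DCN) had log2 fold changes below 0, with a median of -0.45 and none at an unadjusted p under 0.05. They stand for fewer genes: several are of COL1A1 or COL1A2, and the others are of RGS5 and LUM. Their centred level ran from -0.78 (dark contrast 3) to 0.19 (dark contrast 2) in the dark contrast group. In the blank contrast group it ran from -0.19 to 0.98 (blank contrast 2). Their summed level ran from 27.5 to 46.3 CPM in the dark contrast and from 43.8 to 79.1 CPM in the blank contrast libraries. Of the 6 tested features of endothelial markers 4 lay above 0 with a median of 0.08, none at an unadjusted p under 0.05, and their summed level ran from 48.9 to 77.2 CPM in the dark contrast and from 53.2 to 56.1 CPM in the blank contrast libraries. The part of such cells in the difference of CYR61 was not tested.

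Over all features tested, edgeR called 0 of 42619 (0%) in each of the 12 comparisons, members included, with 1884 to 2419 features at an unadjusted p under 0.05. DESeq2 called 17 to 46 features in the 11 comparisons with a direction and 210 over the 5 groups, and limma called 0 or 1, with no member among them. At an unadjusted p under 0.05, dark against blank contrast brains had 2 of the 6 members lower (ARC and CYR61), where 2.89% of all features were lower by that rule. The same 2 members were those whose libraries did not overlap, against 5.84% of all features lower without overlap. Audiovisual against dark contrast brains had 2 members higher at that p (CYR61 and HOMER1 feature A), against 2.66% of all features. Its members higher without overlap in CPM were ARC, by a narrow margin that FPKM did not keep, and HOMER1 feature A, against 5.48%.

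CYR61 alone was higher at an unadjusted p under 0.05, and without overlap, in acoustic against dark contrast brains (2.65% and 5.46% of all features) and in visual against dark contrast brains (2.64% and 5.3%). In the visual comparison HOMER1 feature B lay lower without overlap, as 5.3% of all features did. DUSP4 was the sole member at that p in audiovisual against blank contrast brains, where 2.25% of all features were lower and 4.92% lower without overlap. It was also lower without overlap in visual against blank contrast brains (5.38% of all features) and past that p when all stimulus and contrast libraries were pooled (2.31% lower). HOMER1 feature A was higher without overlap in audiovisual against visual brains (5.01%). No member was past that p or free of overlap in acoustic against blank contrast (4.42% of all features past that p in either direction), audiovisual against acoustic (4.9%) or acoustic against visual brains (5.01%). In the F test over 5 groups, CYR61 was the only member under 0.05 (unadjusted p = 0.0126), as 4.74% of all features were. Since 5 genes were looked at in many comparisons, counts this small are a description of these genes and not a test of the list.

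**Figure D3:**
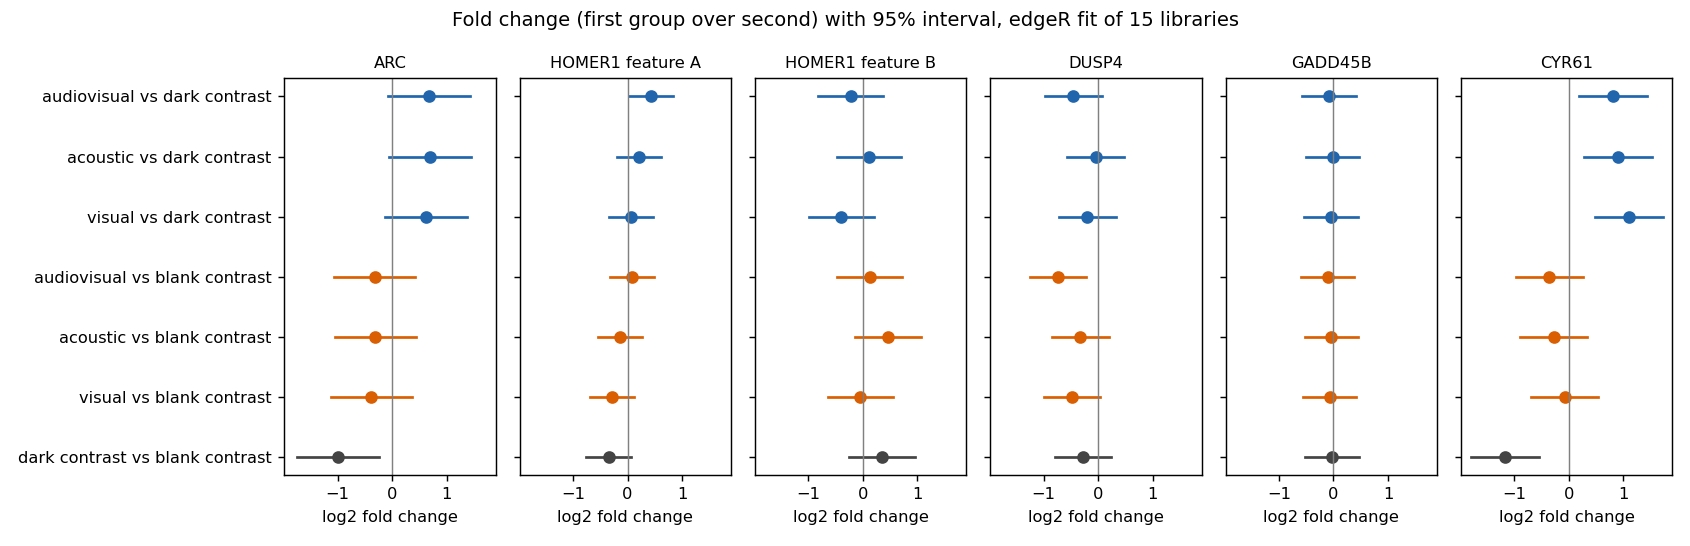
Log2 fold changes of the 6 member features (horizontal axes, shared scale) with 95% intervals from the edgeR fit, for each stimulus group against each contrast group and for dark against blank contrast; a positive value means higher in the group named first. CYR61 in dark against blank contrast brains (-1.17) lies farthest from 0, and the intervals of GADD45B all include 0.

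The median log2 fold change of the 6 members was -0.31 in dark against blank contrast brains, where 5 of them lay below 0, against a median of 0.00 and 50.0% below 0 over all features. It was 0.18 in audiovisual, 0.16 in acoustic and 0.01 in visual brains against the dark contrast group, and -0.21, -0.21 and -0.18 against the blank contrast group. In visual against blank contrast brains all 6 members lay below 0, with values from -0.48 to -0.05. In the pooled comparison 4 of 6 lay above 0 with a median of 0.03, so the members did not share a direction between stimulus and contrast brains.

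**Figure D4:**
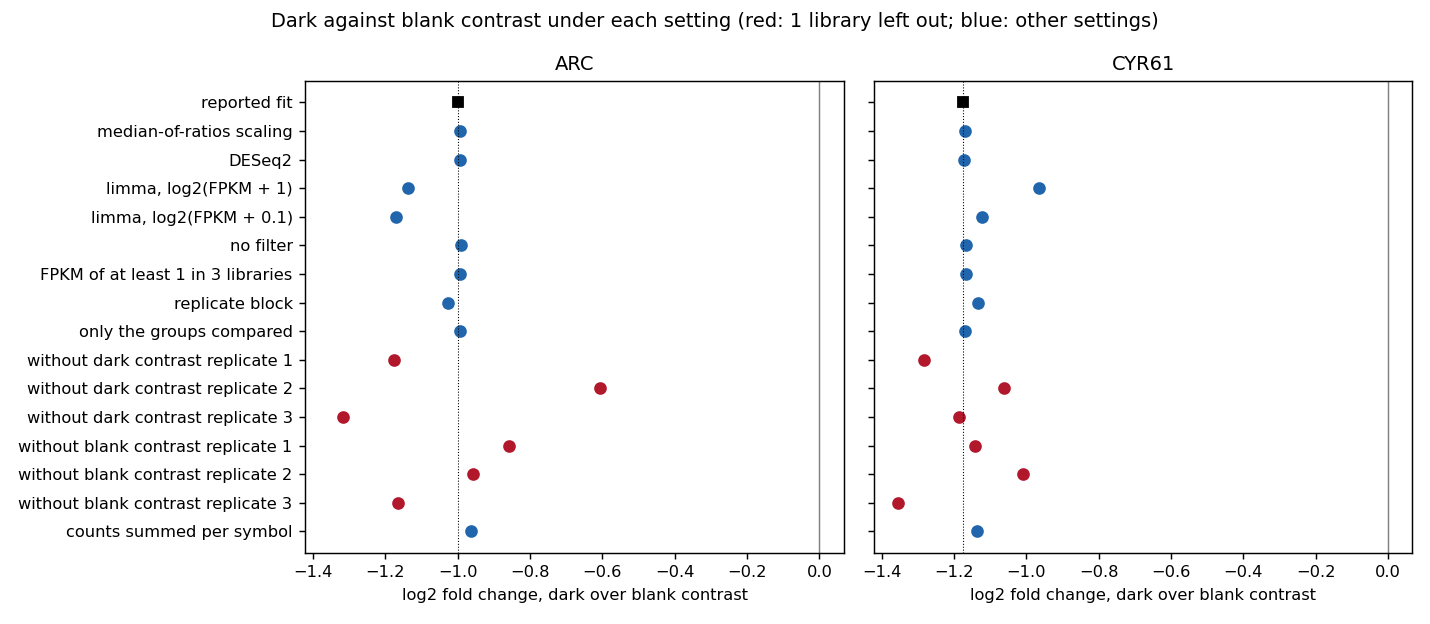
Log2 fold change (horizontal axis) of ARC on the left and CYR61 on the right in dark against blank contrast brains, under each processing setting (blue), with each library left out (red) and as reported (black square and dotted line). CYR61 stays between -1.35 and -0.96 and ARC between -1.32 and -0.61, its value nearest to 0 being the one without dark contrast 2.

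Across the 15 libraries, which share their depth, scaling and groups, the closest pair of members was ARC and CYR61 (Pearson r of log2 levels 0.69, Spearman rho 0.78, and r = 0.58 over the 14 libraries without dark contrast 2). ARC and HOMER1 feature A had r = 0.49, and ARC and HOMER1 feature B r = -0.44. DUSP4 and GADD45B had r = 0.41, and the other pairs lay between -0.36 and 0.37. The spread also differed between members: the highest library exceeded the lowest 6.31-fold for ARC, 3.27-fold for CYR61, 2.34-fold for HOMER1 feature B, 2.26-fold for DUSP4, 1.65-fold for GADD45B and 1.61-fold for HOMER1 feature A.

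Features with the pattern most like each member were taken as the 3 highest Pearson r over the 15 libraries among 13260 features with a symbol and a mean of at least 5 CPM. For ARC they were Zfp26 (r = 0.98), nr4a1 (0.96) and NPAS4 (0.95). The nuclear receptor nr4a1 and the neuronal factor NPAS4 are activity-induced transcription factors, while the Zfp26 symbol is uncertain because its closest match in NR is a zinc finger and SCAN domain protein. Without dark contrast 2 these values were 0.91, 0.82 and 0.75 over 14 libraries.

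The other members resembled none of these factors at that level. For CYR61 the most alike were CELF4 (0.85), an RNA-binding splicing regulator, the RNA helicase DDX5 (0.84) and the sorting nexin SNX14 (0.84). For DUSP4 they were the metabotropic glutamate receptor GRM2 (0.84), ZNF84 (0.82) and the Mediator subunit MED13L (0.81). For GADD45B they were GPR22 (0.81), the adaptor NCK2 (0.79) and EPB41L2 (0.77). For HOMER1 feature A they were the tyrosine kinase FER (0.82), Ylpm1 (0.81) and ddb1 (0.79). The highest of so many correlations over 15 libraries is high by selection, and these values are a description.

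**Figure D5:**
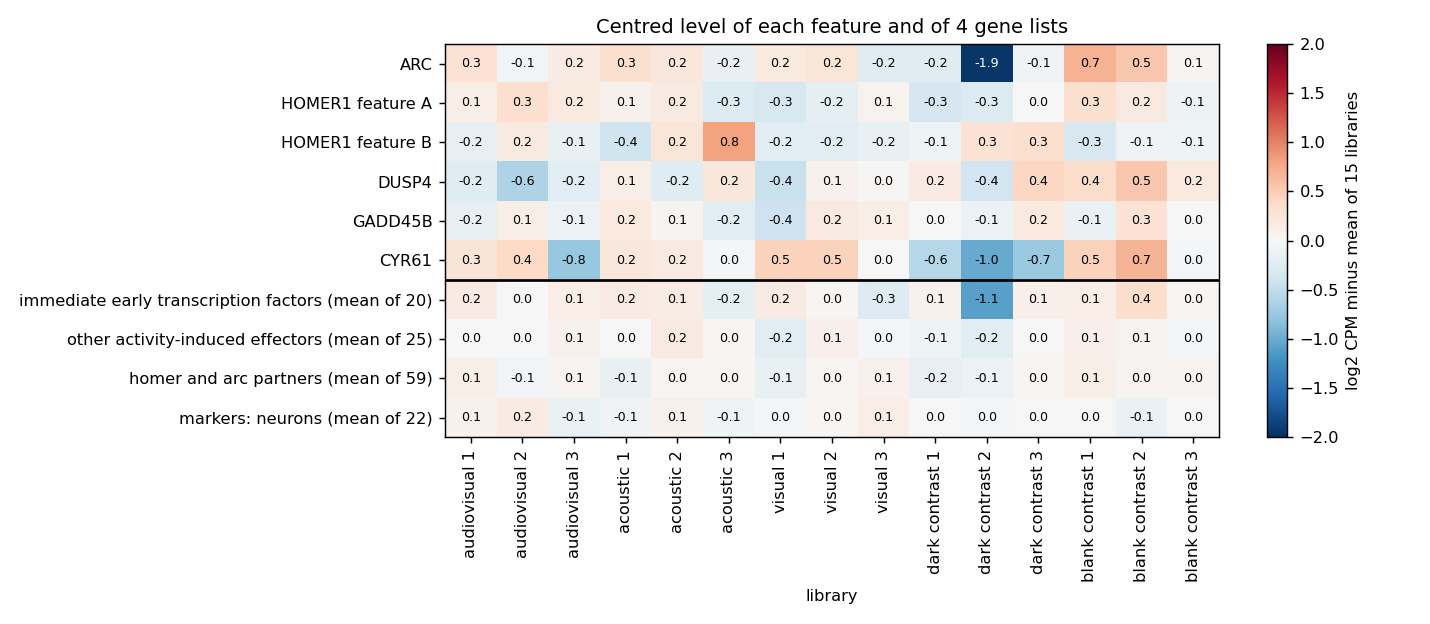
Log2 level of each member feature, and the mean over the features of 4 gene lists, in each library minus the mean of the 15 libraries (colour scale and printed values in log2 units; libraries in columns from audiovisual to blank contrast). Dark contrast 2 is the lowest library for ARC, CYR61 and the immediate early transcription factors (-1.09), and acoustic 3 the highest for HOMER1 feature B.

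Other genes of the same pathways were read from lists, none of whose features was called in any comparison. Immediate early transcription factors (20 tested features, 16 of 25 symbols) had 16 features below 0 in dark against blank contrast brains, 5 of them at an unadjusted p under 0.05 (as were 2.89% of all features) and none above 0 at that p, with a median of -0.25. Without dark contrast 2, 12 of 20 lay below 0, 2 at that p, with a median of -0.06 (3.41% of all features lower at that p). The mean level of egr1 was 71.0 ± 43.5 CPM in dark and 138 ± 39.7 CPM in blank contrast brains, and that of NPAS4 8.94 ± 6.21 CPM in dark and 18.8 ± 2.80 CPM in blank contrast brains (SD, n = 3 each), both with dark contrast 2 as the lowest library. JUND, the most abundant factor of the 3 with the smallest F test p, averaged 121 ± 30.5 CPM in dark and 164 ± 6.37 CPM in blank contrast brains, and Egr2 stayed below 1 CPM in both means. In audiovisual, acoustic and visual against dark contrast brains the list had 12 features of 20 above 0 each time, with medians of 0.24, 0.09 and 0.19. Without dark contrast 2 the numbers above 0 were 11, 7 and 8, with medians of 0.04, -0.14 and -0.11. Without that library, in dark against blank contrast brains the features lower at an unadjusted p under 0.05 numbered 4 of 22 MAP kinases and phosphatases (median -0.14), 1 of 25 other effectors (-0.08), 2 of 59 synaptic partners (-0.04) and 1 of 15 CCN genes and YAP or SRF targets (-0.24).

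Other activity-induced effectors (25 tested features, 17 of 28 symbols) had 14 of 25 features below 0 in dark against blank contrast brains, with a median of -0.08. Of these, 2 were at an unadjusted p under 0.05 (2.89% of all features were lower at that p). Nptx2, a secreted pentraxin that clusters glutamate receptors, averaged 93.9 ± 12.6 CPM in dark and 97.8 ± 6.52 CPM in blank contrast brains. PLK3, a stress-responsive kinase, had a log2 fold change of 0.43 (SE 0.16) in the 9 stimulus against the 6 contrast libraries and did not pass over all features.

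Partners of ARC and HOMER1 at the synapse (59 tested features, all 16 symbols) had 37 of 59 features below 0 in dark against blank contrast brains, with a median of -0.10. Of these, 3 were at an unadjusted p under 0.05 (2.89% of all features were lower at that p). CAMK2B, a calcium-dependent kinase subunit that binds ARC, averaged 1.98 ± 0.38 CPM in dark and 1.77 ± 0.38 CPM in blank contrast brains. The HOMER1 paralog HOMER3, listed with the other effectors, averaged 31.8 ± 8.78 CPM in dark and 48.7 ± 5.69 CPM in blank contrast brains, a log2 fold change of -0.62 (edgeR unadjusted p = 0.0415), and HOMER2 20.2 ± 0.94 CPM in dark and 23.2 ± 3.34 CPM in blank contrast brains. HOMER3 and HOMER1 feature A thus had the same sign in this comparison, and neither passed. HOMER1 feature B had the opposite sign (0.35), and HOMER1 summed over both features gave -0.11.

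MAP kinases and other dual-specificity phosphatases (22 tested features, 12 of 16 symbols) had 17 of 22 features below 0 in dark against blank contrast brains, with a median of -0.18. Of the 22, 2 were lower at an unadjusted p under 0.05 (2.89% of all features), and 4 without dark contrast 2 (3.41% of all features). MAPK10, a neuronal stress-activated kinase, averaged 32.6 ± 1.03 CPM in dark and 45.2 ± 1.77 CPM in blank contrast brains (-0.47, SE 0.16). The upstream kinase map2k2 averaged 1.11 ± 0.57 CPM in dark and 1.45 ± 0.63 CPM in blank contrast brains. It averaged 2.12 CPM in audiovisual, 0.79 CPM in acoustic and 1.27 CPM in visual brains (edgeR F test unadjusted p = 0.0444, adjusted p = 0.9985). Dusp6, a cytoplasmic phosphatase of the same family as DUSP4, averaged 9.91 ± 1.41 CPM in audiovisual brains, against 12.1 ± 0.61 CPM in blank contrast brains. Its means were 12.0 CPM in acoustic, 10.4 CPM in visual and 11.2 CPM in dark contrast brains. The edgeR F test over 5 groups gave it an unadjusted p = 0.687.

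The CCN family and targets of YAP or SRF (15 tested features, 10 of 19 symbols) had 11 of 15 features below 0 in dark against blank contrast brains, with a median of -0.15. Of these, 2 were at an unadjusted p under 0.05 (2.89% of all features were lower at that p). Ctgf, the closest relative of CYR61 in the list, averaged 22.0 ± 22.9 CPM in dark and 18.5 ± 13.4 CPM in blank contrast brains. Its log2 fold change was 0.25 with an SE of 0.75 (edgeR unadjusted p = 0.741). With that SE its sign is uncertain and cannot be set against that of CYR61. The CCN gene nov stood on a pair of low features, which averaged 2.17 ± 1.56 and 2.35 ± 1.40 CPM in dark and 1.44 ± 0.73 and 2.35 ± 1.36 CPM in blank contrast brains. LATS2, a kinase that restrains YAP, averaged 10.97 ± 2.26 CPM in dark and 15.2 ± 1.43 CPM in blank contrast brains (-0.47, SE 0.19). GADD45A and GADD45G, the paralogs of GADD45B, had log2 fold changes of 0.15 and 0.01 in dark against blank contrast brains, both within an SE of 0.26 and 0.22.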

How the data were processed

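Brains of 15 samples in 5 groups of 3 were sequenced as paired reads of 150 bases, from Trizol-extracted total RNA and NEBNext Ultra libraries, per the labels' protocols. The deposited table holds estimated counts per clustered transcript, not normalized (per the file headers), of which 57.4% are whole to within 1e-06, and FPKM computed by the authors; the lowest FPKM is 0.31, so features at 0 in any library are not analysed here. For aligner, assembler and quantifier, the names were not given in the sources used here. Of all features, 41.8% carry a Swiss-Prot symbol.

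Estimated counts were rounded, filtered to a mean of at least 1 FPKM (42619 features), scaled by TMM and fitted in edgeR 4.0.16 (R 4.3.3) with all 5 groups sharing 1 spread (residual degrees of freedom 10, common biological CV 0.329). Quasi-likelihood tests covered 10 pairs of groups, the 3 stimulus against the 2 contrast groups and an F test, with Benjamini-Hochberg adjustment over all features within a comparison and a threshold of 0.05. The standard error (SE) was approximated as the size of the log2 fold change over the root of its F statistic. Log2 levels used a prior count of 2. Alternatives were median-of-ratios scaling, DESeq2 1.42.0, limma 3.58.1 on log2(FPKM + 1) and log2(FPKM + 0.1), other filters, a replicate block, a fit of only the groups compared, each library left out, and counts summed per symbol; list counts without dark contrast 2 were added after seeing the data. The fit was tested on simulated data. The genes, lists and tests were chosen with earlier results of these data known. Named genes are all member features, the 3 most alike per symbol, in each list the 3 features with the smallest F test p (some of which are not reported here), and the most abundant FOS, EGR1, NPAS4 and JUNB features. HOMER2, GADD45A, GADD45G, Ctgf and Dusp6 fall outside this rule and are given as relatives of members. Intervals on shares cover counting error only.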

Additional observations from a re-analysis of the deposited data

Results flagged for a closer look

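HOMER1 feature A was singled out by its log2 levels. On that scale every audiovisual library lay above, and every visual library below, the mean of the blank contrast libraries. In CPM, audiovisual 1 lay just below the blank contrast mean, so the separation depended on the scale. Against blank contrast brains, the log2 fold change of feature A was 0.09 in audiovisual brains (per library 0.01 to 0.21). It was -0.28 in visual brains (-0.46 to -0.06), a difference of 0.37. Both comparisons share the blank contrast libraries. The direct comparison of audiovisual with visual brains gave an edgeR unadjusted p = 0.0721 and an adjusted p = 0.9997, so the difference did not pass.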

How the results depend on the processing

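No member was called in any comparison under any setting tried, and edgeR called no feature with median-of-ratios scaling, without a filter, with an FPKM of at least 1 in 3 libraries or with counts summed per symbol. DESeq2 called 38, 37 and 36 features in audiovisual, acoustic and visual against dark contrast brains, 32, 33 and 32 in the same groups against blank contrast brains, and 46 in dark against blank contrast brains. It called 37 in audiovisual against acoustic, 20 in audiovisual against visual, 27 in acoustic against visual brains, 17 in the pooled comparison and 210 over 5 groups. limma on log2(FPKM + 0.1) called 1 feature in visual against blank contrast brains. With only the groups compared in the fit, edgeR called 1 feature each in acoustic against dark contrast and in audiovisual against visual brains.

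Leaving out each library in turn gave 0 to 2 called features in audiovisual against dark contrast brains and over 5 groups, 0 in acoustic against dark contrast and dark against blank contrast brains, and 0 to 1 in each other comparison.

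Signs of values near 0 turned in part of the settings. GADD45B in dark against blank contrast brains was 0.010 with counts summed per symbol and ran from -0.12 to 0.11 over libraries left out (0.04 without dark contrast 2 and 0.11 without blank contrast 2). ARC in audiovisual against acoustic brains was 0.0069 and 0.0071 in limma with a pseudocount of 1 and 0.1, and ran from -0.14 to 0.087 over libraries left out. ARC ran likewise from -0.076 to 0.15 in audiovisual and from -0.068 to 0.20 in acoustic against visual brains. CYR61 in visual against blank contrast brains ran from -0.26 to 0.09 (0.06 without visual 3 and 0.090 without blank contrast 2). HOMER1 feature A in audiovisual against blank contrast brains ran from -0.021, without blank contrast 3, to 0.18. ARC in the pooled comparison ran from -0.033, without dark contrast 2, to 0.32. HOMER1 summed over both features turned the sign of feature A in acoustic against blank contrast (0.05 summed, -0.14 for feature A) and in visual against dark contrast brains (-0.11 summed, 0.07 for feature A). Feature B, the other part of the sum, had log2 fold changes of 0.46 and -0.39 in these comparisons, opposite in sign to feature A. Why the features differed, or why the other signs turned, was not tested.

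No pairing of the libraries by the replicate numbers of the titles was visible. Deviations of same-numbered libraries correlated at -0.03 to 0.04 over 30 pairs, and those of differently numbered libraries at -0.07 to 0.05 over 60 pairs. Such values cannot show that the libraries were unpaired, since a pairing may leave no trace of this kind. Correlations were also averaged per replicate number for each library, and 7 of 15 libraries had the highest mean with their own number. With the replicate block edgeR called 0 features in each comparison. Counts of 55 to 260 limit all members but ARC, and 3 libraries a group limit every comparison.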
